A study of Mus musculus with 34 samples.

Results

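Cohesin binding was followed through the SMC1 peak lists of CTCF-WT bone marrow-derived dendritic cells (BMDCs) before LPS (WT) and after it (WTLPS). Of the 1393623 peaks in the 30 peak lists of the series, 120992 belonged to these lists, 63638 in WT and 57354 in WTLPS. A peak with at least 1 bp inside a peak of the other condition was called shared, a WT peak with none was called lost and a WTLPS peak with none was called gained. The cells came from bone marrow of C57BL/6 mice, 8 weeks old per the labels, that carried CreER, a tamoxifen-inducible Cre recombinase expressed from the Rosa26 locus, and no loxP-flanked Ctcf. They were grown for 6 days in GM-CSF with 4-OH-tamoxifen on the first day, so that these controls received the Cre and the drug too, and CD11c+ cells were then selected. WTLPS cells were exposed for 3 h to 100 ng/ml of LPS, which bacteria shed and TLR4 senses, and WT cells were left unstimulated, as the sample titles give it. The CTCF-KO cells used for comparison were CreER;CTCF fl/fl cells that otherwise received the same culture and drug, without LPS (KO) and with it (KOLPS). Each antibody and condition had 1 list, so that no difference between conditions could be set against a spread between replicates and no test was run. Percentages are followed in parentheses by 95% Wilson intervals, which cover counting error only, and conditions are compared as these lists and not as populations of animals.

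The labelled cell type was checked by H3K4me3 peaks, which mark active or poised promoters, at the start sites of marker genes. Of 15 dendritic and myeloid markers, 13 had such a peak both in WT and in WTLPS, and H2-Ab1 and Cd209a had none. None of 5 T cell markers had one, against 2 of 5 B cell markers (Pax5 and Ebf1), 2 of 5 erythroid markers (Klf1 and Epor) and 1 of 5 neutrophil markers (Cebpe), and which of these genes were transcribed was not measured.

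SMC1 is a core subunit of cohesin, the ring-shaped complex that extrudes chromatin loops. CTCF, a DNA-binding protein with zinc fingers, stops cohesin at oriented sites and so anchors many loops and domain boundaries, while other cohesin lies at active enhancers and promoters marked by H3K27ac. In dendritic cells LPS drives the NF-κB subunit p65 (RelA) into the nucleus, where it binds enhancers and promoters of inflammatory genes.

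The following windows, 50 bases to either side of an SMC1 summit, are shown because they stand for the kinds of sites described here, namely the strongest gained site, gained sites bound by p65 and lost sites over a CTCF or a PU.1 motif. They were read from the RefSeq sequence of GRCm38 (mm10), plus strand, 5′ to 3′, and capitals mark a motif match, or a run of overlapping matches, on either strand.
Gained, 132828 bp upstream of Il6, chr5:29880236-29880336: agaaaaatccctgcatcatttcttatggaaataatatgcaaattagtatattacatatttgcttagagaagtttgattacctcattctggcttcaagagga
Gained with p65, 8428 bp upstream of Saa3, NF-κB motif, chr7:46724078-46724178: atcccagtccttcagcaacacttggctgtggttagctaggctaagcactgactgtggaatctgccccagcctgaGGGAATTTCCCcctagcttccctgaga
Gained with p65, 9070 bp downstream of the start site of Psma6, NF-κB motif, chr12:55393242-55393342: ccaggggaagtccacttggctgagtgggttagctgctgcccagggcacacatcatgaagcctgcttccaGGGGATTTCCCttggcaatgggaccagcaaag
Gained with p65, 6531 bp upstream of Prg4, AP-1 motif, chr1:150472646-150472746: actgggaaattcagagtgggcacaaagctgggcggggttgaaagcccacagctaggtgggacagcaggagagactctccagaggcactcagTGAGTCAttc
Lost, 32961 bp upstream of Ccn5, CTCF motif, chr2:163787878-163787978: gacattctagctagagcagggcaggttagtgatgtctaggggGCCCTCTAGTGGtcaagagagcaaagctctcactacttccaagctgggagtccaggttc
Lost, 3514 bp downstream of the start site of Lgals2, CTCF motif, chr15:78851965-78852065: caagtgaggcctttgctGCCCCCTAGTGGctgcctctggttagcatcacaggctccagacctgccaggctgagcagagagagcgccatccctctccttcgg
Lost with H3K27ac before LPS only, 780 bp upstream of Zfp36l2, PU.1 motif, chr17:84188677-84188777: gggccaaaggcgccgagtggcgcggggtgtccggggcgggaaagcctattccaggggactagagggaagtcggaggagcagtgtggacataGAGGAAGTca

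Most SMC1 sites were called in both conditions, and those called in only 1 were mainly weak. In WT, 47415 of 63638 peaks (74.5%, 74.2 to 74.8%) were shared and 16223 were lost (25.5%, 25.2 to 25.8%). In WTLPS, 46959 of 57354 peaks (81.9%, 81.6 to 82.2%) were shared and 10395 were gained (18.1%, 17.8 to 18.4%). The median fold, the ratio of fragment pileup at the summit to local background, was 3.75 at lost and 3.70 at gained sites, against 6.10 (WT) and 5.77 (WTLPS) at shared ones. Lost and gained peaks were also narrower, with median widths of 299 and 323 bp against 541 and 547 bp. The fragments at each summit could be recovered from fold and −log10 p, and a WT peak needed 21 at the usual background of 5.40 fragments per base while a WTLPS peak needed 22 at 5.76. Of the lost sites 66.1%, and of the gained sites 67.7%, had fewer than 5 fragments more than that. A call in only 1 condition at such a site therefore rested on a few fragments, and 16.6% (16.1 to 17.2%) of lost and 18.2% (17.5 to 19.0%) of gained sites had a peak of the other condition within 1 kb.

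Ranked by −log10 p within its own list, the share of WT peaks without a WTLPS peak fell from 69.0% (67.8 to 70.1%) in the weakest of 10 equal groups to 23.3% in the fifth and 0.0786% in the strongest. For WTLPS peaks without a WT peak it fell from 56.0% to 12.4% and 0.0174%. There were thus few strong sites among the gained and lost ones, with 222 of the gained sites (2.14%) and 240 of the lost sites (1.48%) at −log10 p of 20 or more. Lost sites outnumbered gained sites on every chromosome, with between 0.528 (chromosome X) and 0.819 (chromosome 16) gained sites for each lost one.

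**Figure D1:**
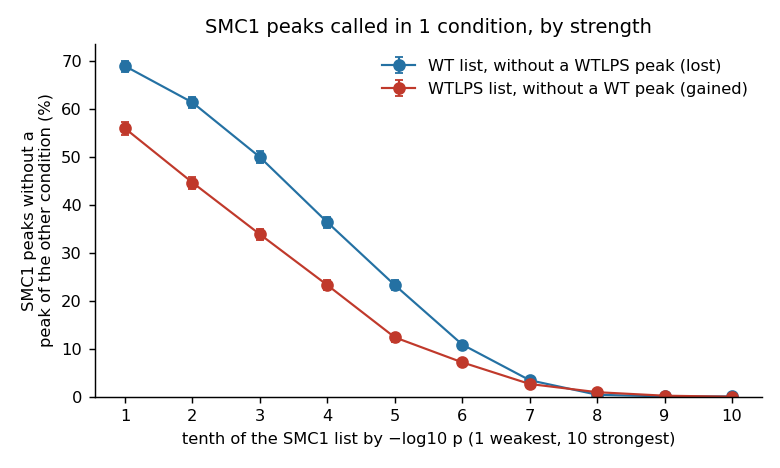
Share of SMC1 peaks without a peak of the other condition (y axis, %) in each of 10 equal groups of its own list ranked by −log10 p (x axis, 1 weakest, 10 strongest), for WT peaks (lost, blue) and WTLPS peaks (gained, red), with 95% Wilson intervals. The shares fall from 69.0% and 56.0% in the weakest group to under 1% in the 3 strongest.

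Gained and lost sites were alike in holding less CTCF than shared sites and differed in p65 and H3K27ac. A WT CTCF peak lay at 29.3% of lost sites and 62.3% (61.8 to 62.7%) of shared WT sites, and a WTLPS CTCF peak at 23.1% (22.3 to 23.9%) of gained and 60.7% (60.2 to 61.1%) of shared WTLPS sites. The shared peaks were stronger, and among the weakest peaks the gap was smaller. From −log10 p of 7 to 8, CTCF was at 23.0% of lost and 34.1% of shared WT sites, and at 21.7% of gained and 34.0% of shared WTLPS sites. From 15 to 20 these shares were 41.1% and 53.3%, and 19.4% and 55.2%. p65 after LPS was at 7.92% (7.41 to 8.45%) of gained sites, beside 8.17% (7.92 to 8.42%) of the shared WTLPS sites, which were stronger peaks, and at 0.191% (0.135 to 0.271%) of lost sites, which is 31 of 16223. H3K27ac, the mark of active enhancers and promoters, covered 28.8% (27.9 to 29.7%) of gained sites before LPS and 37.8% (36.8 to 38.7%) after it. At lost sites it went the other way, from 32.9% (32.2 to 33.6%) before to 26.0% (25.3 to 26.7%) after, and at shared WTLPS sites from 36.7% to 34.4%. H3K4me1, which marks enhancers whether active or not, was at 59.5% of lost, 57.1% of shared and 62.4% of gained sites in WT, so that most sites of each class lay in enhancer-type chromatin before LPS.

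Site by site, 1408 gained sites had H3K27ac only after LPS and 473 only before it, a ratio of 2.98. The same ratio was 0.418 at lost sites (803 against 1921) and 0.684 at shared WTLPS sites (2348 against 3434). The H3K27ac lists themselves held 83461 peaks in WT and 77050 in WTLPS. CTCF called on 1 side of LPS was mostly the side before it in every class, with 254 after-only against 450 before-only at gained sites and 283 against 1055 at lost sites, beside CTCF lists of 60537 and 54020 peaks. CTCF was therefore present both before and after at most sites that had it: 77.8% (76.6 to 79.0%) of the 4755 lost sites with WT CTCF still had it in WTLPS, and 89.4% (88.1 to 90.6%) of the 2399 gained sites with WTLPS CTCF already had it in WT. Of the 5333 lost sites with WT H3K27ac, 64.0% (62.7 to 65.3%) still had H3K27ac after LPS.

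Many gained and lost sites carried none of these marks. In WTLPS, 40.1% (39.2 to 41.1%) of gained sites had neither CTCF nor H3K27ac nor p65, 29.0% had H3K27ac alone, 20.2% had CTCF alone and 5.99% had H3K27ac and p65 without CTCF. The lost sites in WT fell out as 41.4% (40.6 to 42.1%) with none, 29.3% with H3K27ac alone and 25.8% with CTCF alone. Of the shared WTLPS sites only 13.6% (13.3 to 13.9%) had none of the 3, and 51.1% had CTCF alone.

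The p65 and H3K27ac shares of gained sites grew with the strength of the SMC1 peak. From −log10 p of 7 to 8, p65 was at 2.48% (2.04 to 3.00%) of 4040 gained sites, from 15 to 20 at 32.0% (28.4 to 36.0%) of 571, from 20 to 30 at 63.4% (56.0 to 70.2%) of 172, and at 30 or above at 86.0% (73.8 to 93.0%) of 50. Shared WTLPS sites had less p65 at equal strength, with 0.786% (0.537 to 1.15%), 6.88% (6.31 to 7.51%), 12.3% (11.5 to 13.0%) and 13.9% (13.3 to 14.4%) in these bins. H3K27ac in WTLPS rose over the same bins from 32.0% (30.6 to 33.4%) to 46 of 50 sites (81.2 to 96.8%). CTCF did not follow, with 21.7% in the weakest bin, 19.4% from 15 to 20 and 4.00% (1.10 to 13.5%) in the strongest. The strongest gained sites were thus mostly sites with p65 and H3K27ac and without CTCF.

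Strong lost sites had another make-up. None of the 218 lost sites from 20 to 30 and none of the 22 above had p65 after LPS, which allows shares of up to 1.73% and 14.9%. CTCF at lost sites rose from 23.0% (21.9 to 24.0%) in the weakest bin to 41.1% (37.8 to 44.5%) from 15 to 20 and 59.1% (38.7 to 76.7%) at 30 or above, as it did at shared sites, where it reached 84.6% in WT and 81.9% in WTLPS.

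**Figure D2:**
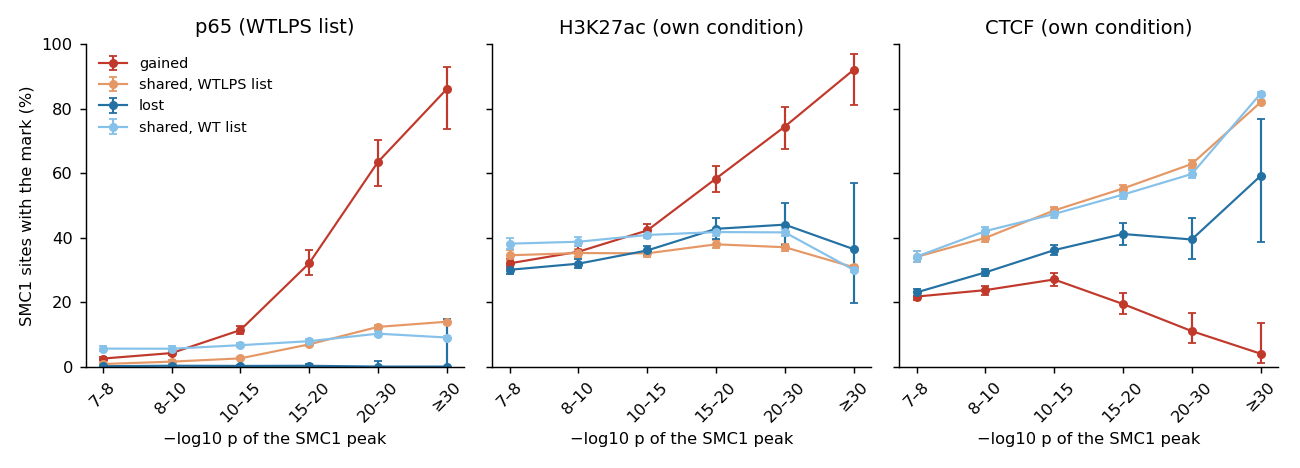
Share of SMC1 sites with p65 after LPS, with H3K27ac of their own condition and with CTCF of their own condition (y axes, %) by −log10 p of the SMC1 peak (x axes) for gained, lost and shared sites, with 95% Wilson intervals. At −log10 p of 30 or above, p65 lies at 86.0% of gained sites and 0% of lost sites, and CTCF at 4.00% and 59.1%.

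The 823 gained sites with p65 differed from the other gained sites. Their median fold was 4.58 against 3.70 at the other 9572 gained sites, and where p65 overlapped, the median distance between the SMC1 and p65 summits was 56 bp. H3K4me1 was already present in WT at 89.9% (87.7 to 91.8%) of them, against 5747 of the 9572 gained sites without p65 (59.1 to 61.0%). H3K27ac covered 44.7% (41.3 to 48.1%) before LPS and 76.5% (73.5 to 79.3%) after it, and 34.0% had it only after. CTCF was at 1.58% (0.925 to 2.68%), against 24.9% (24.1 to 25.8%) of gained sites without p65. Shared WTLPS sites with p65, 3835 in number, were alike in some of this. Their median distance between the SMC1 and p65 summits was 60 bp. In WTLPS, 2949 of these 3835 had H3K27ac and no CTCF, as had 623 of the 823 gained sites with p65. Beyond direct overlap, a p65 summit lay within 50 kb of 49.7% (48.7 to 50.6%) of gained, 42.1% of shared WTLPS and 33.4% (32.6 to 34.1%) of lost sites.

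The same question was asked from the p65 side, on sites chosen without any SMC1 list. Of 4739 p65 peaks called only after LPS, 69.3% (68.0 to 70.6%) already had an SMC1 peak in WT and 86.5% (85.5 to 87.4%) had one in WTLPS. SMC1 was called at 846 of them only in WTLPS and at 33 only in WT. Cohesin was thus already called at most sites to which p65 came, and the change was unequal among them. The share went from 52.1% (48.7 to 55.6%) to 87.0% (84.5 to 89.2%) at the 794 sites where H3K27ac was called only after LPS, and from 84.2% to 95.8% at the 2678 sites with H3K27ac before and after. Sites with no H3K27ac in either list went from 41.3% (38.4 to 44.4%) to 61.0% (58.0 to 63.9%), and the 385 sites with CTCF from 91.2% to 96.6%. In 4 equal groups of these p65 peaks, from the weakest to the strongest by −log10 p, the WTLPS share was 78.3%, 86.0%, 88.3% and 93.4%, while the WT share lay between 67.3% and 70.6%.

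Among H3K27ac peaks called only after LPS, the share with SMC1 rose more where p65 was there too. Of the 32899 H3K27ac peaks called only after LPS, 600 held p65, and SMC1 lay at 44.3% (40.4 to 48.3%) of these in WT and 81.5% (78.2 to 84.4%) in WTLPS. The other 32299 had SMC1 at 8.74% (8.44 to 9.06%) in WT and 10.2% (9.83 to 10.5%) in WTLPS. By number, SMC1 was called only in WTLPS at 225 of the peaks with p65 and at 1349 of those without it. At H3K27ac peaks called only before LPS, the SMC1 share went from 14.1% (13.7 to 14.4%) to 10.4% (10.1 to 10.8%). CTCF peaks called in both conditions had SMC1 at 63.6% in WT and 60.7% in WTLPS, and those called only after LPS at 10.7% and 10.3%.

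CTCF-KO cells were used to see whether the same bases were bound by SMC1 there. Their CTCF lists were shorter but not empty, with 20151 peaks in KO and 11576 in KOLPS. A KOLPS SMC1 peak overlapped 31.0% (27.9 to 34.2%) of gained sites with p65 and 7.95% (7.43 to 8.51%) of those without it, and a KO peak 15.3% (13.0 to 17.9%) and 13.2% (12.5 to 13.9%). At gained sites as a whole, SMC1 in CTCF-KO cells was called only with LPS at 578 and only without it at 949, a ratio of 0.609, against 0.130 at lost sites (356 and 2735) and 0.156 at shared WTLPS sites. At the p65 peaks called only after LPS, SMC1 was at 63.5% in KO and 62.3% in KOLPS. These p65 peaks were called in CTCF-WT cells. The KOLPS p65 list was shorter, with 1752 peaks against 5465 in WTLPS, and lay at 12.2% of the gained sites with p65. The shares in CTCF-KO cells are thus not those of sites known to hold p65 there. The KO and KOLPS SMC1 lists were shorter, with 29965 and 17241 peaks, and the KOLPS background of 4.50 fragments per base was below the 5.34 of KO, so that a lower share in KOLPS and a lower coverage cannot be told apart here.

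Motif matches within 50 bp of the summit separated the classes further, each set beside the window of the same length 1 kb away. NF-κB matches lay at 3.13% (2.81 to 3.48%) of gained summits against 0.914% away, and at 0.727% (0.608 to 0.870%) of lost summits against 0.826%. At gained sites with p65 the NF-κB share was 13.0% (10.9 to 15.5%) against 1.34%, as in the Saa3 and Psma6 windows printed above. AP-1 (TGANTCA) was at 7.06% (6.58 to 7.57%) of gained and 4.49% (4.18 to 4.82%) of lost summits, against 3.00% away in both. C/EBP (TTGCNNAA) reached 14.7% (12.4 to 17.3%) of gained summits with p65, against 4.50% away.

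PU.1 (GAGGAAGT), the motif of a factor needed for myeloid cells, was at 3.75% (3.47 to 4.05%) of lost summits against 0.653% away and at 1.85% (1.61 to 2.12%) of gained summits against 0.587%. Shared summits lay between them, at 3.01% (2.86 to 3.17%) in WT and 2.74% (2.60 to 2.89%) in WTLPS. Among lost sites without CTCF it rose to 4.88% (4.50 to 5.29%). The PU.1 window upstream of Zfp36l2, which encodes an mRNA-decay factor, came from a lost site with H3K27ac before LPS only. CTCF matches were rarer at lost (1.53%) and gained (0.962%) than at shared WTLPS summits (8.48%). Among lost sites with a CTCF peak they were at 4.90% (4.32 to 5.55%), and none was found at the 823 gained summits with p65, which allows up to 0.465%. RUNX (TGTGGTTT) was at 1.55% of lost and 1.54% of gained summits, and STAT (TTCNNNGAA) at 2.71% (2.47 to 2.97%) and 3.65% (3.30 to 4.02%) against 3.35% and 3.14% away. All motifs were searched on both strands with fixed letters, so that a missing match says nothing of the factor.

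Gained sites lay somewhat less often at promoters, taken as the 2.5 kb flanking each annotated start site on both sides, with 16.7% (16.0 to 17.4%) against 20.8% (20.2 to 21.4%) of lost and 20.7% of shared sites. Introns held 44.2% of gained and 44.5% of lost sites, and 35.5% (34.6 to 36.4%) of gained and 31.2% (30.5 to 31.9%) of lost sites lay outside genes.

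The strongest gained site was 2143 bp wide (chr5:29878682-29880824) and lay 132828 bp upstream of Il6, which encodes an inflammatory cytokine. It had 108 fragments at its summit, a fold of 16.1 and −log10 p of 95.7, with p65 after LPS, H3K27ac before and after, and no CTCF. None of the motifs searched lay within 50 bp of its summit, in the first window printed above. Of the 10 strongest gained sites, 9 had p65 and H3K27ac after LPS. They included introns of Slc1a2, a glutamate transporter gene (fold 11.8), of Myo1d, a myosin gene (10.4), and of Gmeb2 (9.90). A site 20978 bp downstream of the start of Ms4a6d had a fold of 8.80, and sites nearest to Mob4 and Hs1bp3 had 9.90 each. The tenth, beside Gm10719 on chromosome 9, had 239 fragments but the lowest fold of the 10, carried no p65 and overlapped peaks of 14 lists. Outside promoters, further strong gained sites with p65 lay 97713 bp downstream of the start of Ptgs2, the inducible cyclooxygenase (fold 9.46), in an intron of the adhesion molecule gene Alcam (9.46) and 6531 bp upstream of Prg4 (9.31), at the AP-1 window above.

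None of the 10 strongest lost sites had p65. The strongest, in an intron of Pcca, was 182 bp wide with a fold of 60.6 and 387 fragments, and overlapped peaks of 4 lists. Sites on chromosome Y, 186 and 193 bp wide, followed, and one beside Gm10718 had 926 fragments at a fold of 3.06. These narrow peaks were unlike the 4 strongest gained ones, which spanned 889 to 2143 bp. The widths overlapped further down, where the 10 strongest gained sites included 430 and 525 bp and the 10 strongest lost sites 402 and 687 bp. Over all sites the median widths were 323 bp (gained) and 299 bp (lost). A lost site 58264 bp upstream of Sox5 (358 bp, fold 12.5) had CTCF before and after LPS, as had sites in Gvin1, a gene of a multigene family (243 bp, 11.2), and 7681 bp upstream of Gm7168 (310 bp, 8.64). Only 2 of the 10, on chromosome Y and near Atp23, had H3K27ac in WT. A KOLPS SMC1 peak lay at the Pcca site, those on chromosome Y and those nearest to Gm10718, Sox5 and Prlhr. The sites nearest to Olfr161, Gvin1, Gm7168 and Atp23 had none. Of all lost sites, 6.08% had a KOLPS SMC1 peak, so that several of the strongest were called in LPS-treated CTCF-KO cells.

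Genes near these sites were counted among 21911 protein-coding genes by their start sites. A gained site lay within 50 kb of 7884 genes (36.0%) and at the promoter of 1109 (5.06%), and a lost site within 50 kb of 11452 (52.3%) and at the promoter of 2334 (10.7%). A gained site with p65 lay within 50 kb of 957 genes (4.37%) and at the promoter of 95 (0.434%). Of the genes with a gained site within 50 kb, 69.2% also had a lost one, and of those with a lost site 47.7% had a gained one. More gained than lost sites were near 16.7% of all genes and more lost than gained near 38.8%. Among the 12576 genes with H3K4me3 at the start site in both conditions these shares were 19.7% and 48.1%, and 45.9% had a gained site within 50 kb. All list counts that follow are set against these shares, and genes of a cluster share sites. The gene counts include weak sites and were not repeated at −log10 p of at least 10.

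Inflammatory genes had more gained than lost sites, against the background. Of 19 chemokine genes 16 (84.2%) had more gained than lost sites within 50 kb and 2 had more lost. Clustered chemokine genes shared sites, so that the 19 are not separate cases. Summed over the genes there were 72 gained and 25 lost sites, of which 43 and 17 were distinct. Any gained site lay near 17 of the 19 genes (89.5%) and any lost site near 13 (68.4%). Of 23 pro-inflammatory cytokine genes, 22 (95.7%) had a gained site and 18 (78.3%) a lost one, 7 had a gained site with p65, 13 had more gained than lost and 2 more lost than gained. Gained sites lay at the promoters of 9 of these cytokine genes and lost sites at none. The LPS-induced enzyme and feedback genes counted 16 of 28 with more gained and 7 with more lost, interferon-stimulated genes 19 and 9 of 29, and NF-κB subunits and inhibitors 11 and 7 of 23. Lost sites lay near 23 of the 28 (82.1%), 19 of the 29 (65.5%) and 17 of the 23 (73.9%), so that these lists too were above all genes in both directions. With p65, gained sites lay within 50 kb of 10 of the 28, 4 of the 29 and 8 of the 23. Within 10 kb, gained and lost sites were near 13 and 3 of the 23 cytokine genes and 16 and 9 of the NF-κB genes, and within 100 kb near 23 and 22, and 21 and 22. At the promoters of 12 of the 23 NF-κB genes (52.2%) there was a gained site, the highest share of the lists.

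In none of the other lists did genes with more gained sites outnumber those with more lost ones, although many of their shares were above those of all genes in both directions. Costimulation and antigen presentation genes were split, with 10 of 25 (40.0%) on either side. Against the 16.7% and 38.8% of all genes, this list was thus further to the gained side. More lost than gained sites lay near 14 of 24 genes of the TLR pathway (5 with more gained), 15 of 25 AP-1 and immediate early factors (8), 14 of 25 myeloid and dendritic cell factors (9), 18 of 30 ribosomal protein genes (8) and 10 of 18 cohesin and loop factors (1). Within 10 kb of the TLR pathway genes the counts were equal, with 9 near a gained and 9 near a lost site, against 15 and 22 within 50 kb. The 9 of 25 myeloid and dendritic cell factors with more gained sites (36.0%) were thus still above the 16.7% of all genes, as their 56.0% with more lost sites were above 38.8%. No ribosomal or cohesin gene had a gained site with p65 within 50 kb. The share was 4.37% over all genes and 5.61% over those with H3K4me3, too low for lists of 30 and 18 genes to show a lack. Gained sites near the cytokine genes, 76 distinct ones, had H3K27ac after LPS in 60.5% and before in 34.2%, and those near chemokine genes, 43, in 69.8% and 44.2%, against 37.8% and 28.8% of all gained sites. H3K27ac was also more frequent after LPS at the lost sites near these genes. It was at 57.7% after and 42.3% before for 26 lost sites near cytokine genes, and at 58.8% and 47.1% for 17 near chemokine genes. The 58 lost sites near myeloid and dendritic cell factors had H3K27ac in 70.7% before and 43.1% after LPS, against 32.9% and 26.0% of all lost sites.

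**Figure D3:**
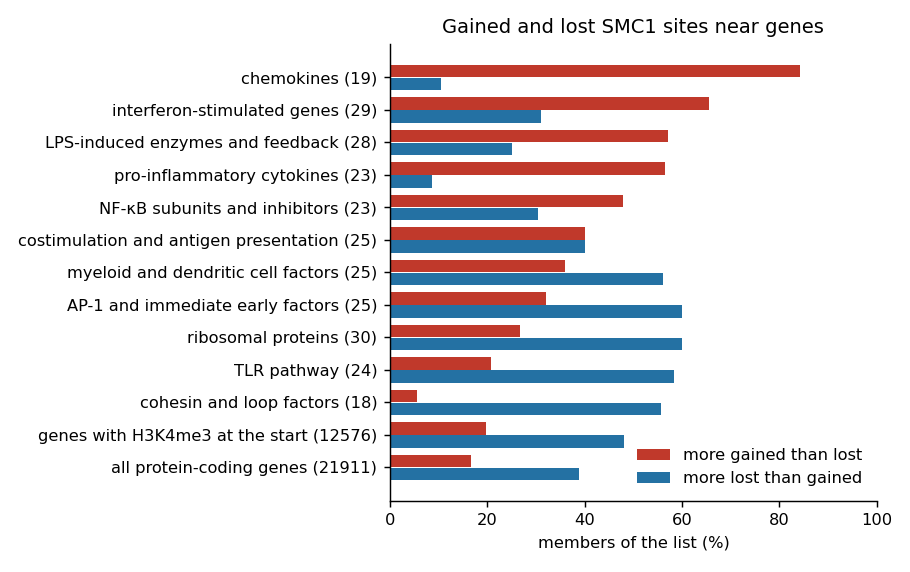
Share of the members of each gene list (x axis, %; number of genes in parentheses) with more gained than lost SMC1 sites within 50 kb of the start site (red) or more lost than gained (blue). Chemokines stand at 84.2% and 10.5%, cohesin and loop factors at 5.56% and 55.6%, and all protein-coding genes at 16.7% and 38.8%. Genes of a cluster share sites.

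Among the cytokines, Il6 had 10 gained, 2 lost and 5 shared WTLPS sites within 50 kb. Il12b, the p40 subunit of IL-12 and IL-23, had 8 gained and 2 lost, Il27 had 8 and 0, and Csf1 and Tnfsf15 had 7 and 0 each. Tnf had 2 and 2 beside 16 shared sites, Il10 1 and 1, and Il1rn, the IL-1 receptor antagonist, 0 and 2. The counts of sites called anew were therefore unequal within the list.

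For the chemokines, Cxcl9 and Cxcl10, neighbours that attract T cells through CXCR3, had 10 gained sites each with 3 and 1 lost. The neutrophil attractants Cxcl1 and Cxcl2 had 6 and 0 each, with 2 of the gained sites bound by p65 in either case. Ccl5 had 4 gained sites, of which one at −1909 bp from the start had a fold of 6.50 with p65, and all 4 had H3K27ac before and after LPS. Ccr7, the receptor that guides dendritic cells to lymph nodes, and Ccl6 had no gained site and 1 and 3 lost ones.

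Members of the NF-κB list differed too. Tnfaip3, the ubiquitin-editing enzyme A20, had 7 gained and no lost site, with folds from 3.55 to 5.32. H3K27ac lay at 2 of these 7 sites before and 5 after LPS. None of the 7 sites had p65, while WTLPS had 7 p65 peaks within 50 kb of the start site and p65 at the promoter. Nfkbiz had 5 and 0, Ikbkb, a kinase that activates the pathway, 9 and 2, and Tnip1 4 and 3 with p65 at 3 of the gained. Nfkbia, the inhibitor IκBα, had 2 and 2 beside 12 shared sites, and Tnip2 had 1 and 7.

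Acod1, which makes itaconate in activated myeloid cells, had 9 gained and 2 lost sites. Of the 9, 3 had p65, among them one at −60 bp from the start site with a fold of 5.54 and 55 fragments. Ptgs2 had a gained site at −102 bp from its start site with a fold of 4.58, with p65 and H3K27ac only after LPS. Saa3, an acute-phase protein gene, had 4 gained sites and no lost one, and Socs3, a feedback inhibitor of cytokine signalling, had 6 and 1. Nos2, the inducible nitric oxide synthase, had 5 gained sites, 3 of them with CTCF and none with H3K27ac or p65.

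The genes with the most gained sites within 50 kb lay in a few clusters. Pla1a, a phospholipase gene, had 12 gained and 2 lost sites, and its neighbours Adprh and Cd80 had 10 and 3 each, in part the same sites. Cd86 had 11 gained and 3 lost. CD80 and CD86 are the ligands through which dendritic cells costimulate T cells through CD28. None of the gained sites near Pla1a, Cd80 or Cd86 had p65 or CTCF, and H3K27ac after LPS was at 10 of 12, 8 of 10 and 8 of 11. Away from these gained sites, WTLPS had 7, 4 and 2 p65 peaks within 50 kb of the 3 start sites. Ms4a6b and Ms4a4d, of a family of membrane proteins, had 11 and 10 gained sites and no lost one, and Gm8369 beside them had 11 and 1. The 11 near Ms4a6b were mostly weak, with 3.40 both as the lowest and as the median fold. Gbp7 and Gbp3, interferon-inducible GTPases, had 10 gained sites each and no lost one, with folds of 3.40 to 4.88, and Gbp5 had 9 and 0.

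The genes with the most lost sites were of other kinds. Tbc1d22a, of a family of Rab GTPase regulators, had 12 lost and no gained site, and its neighbour Cerk, ceramide kinase, 11 and none. Of the 12, 9 had H3K27ac before and 4 after LPS, and the folds ran from 3.59 to 7.03. Tbl1xr1, a subunit of the NCoR corepressor complex, had 12 and 1, and Clec1a, a C-type lectin receptor, 11 and none, with H3K27ac at 8 before and 4 after. Abhd12 and Gins1, adjacent genes, had 11 and 1 each, and Slc39a10, a zinc transporter gene, 11 and 1. Zswim4 had 11 and 3, Klrc3 11 and 3, and Tmem168 11 and 6.

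Transcription factors of the myeloid and dendritic lineages went both ways. Stat3 and Gfi1 had 4 gained sites each and no lost one, Bcl6 had 4 and 1, Cebpb 3 and 1, Zbtb46 2 and 1 and Irf4 5 and 4. Irf8, needed for dendritic cell and monocyte development, had 5 lost sites and 1 gained one, and the strongest lost site, 1108 bp inside the gene, had a fold of 5.47. Cebpa had 5 lost and no gained site, with 2 of the lost at its promoter, Runx1 had 7 and 1 and Runx2 8 and 1. Among the receptors, Tlr4, which senses LPS, had 5 lost and 2 gained sites and Tlr5 5 and none, while Tab2, which links TRAF6 to TAK1 downstream of them, had 1 lost and 8 gained. Nipbl, the loader of cohesin, had 6 lost and 2 gained sites, and Smc1a and Rad21 had no site of any class within 50 kb.

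The region of Il6 (chr5:30013114-30019981) is shown in full because it held the strongest gained site and Il6 is a known target of LPS. From 150 kb upstream to 50 kb downstream of the start site, WTLPS had 22 gained and 12 shared SMC1 peaks and WT had 4 lost and 15 shared ones. The folds of the 22 ran from 3.32 to 16.1 with a median of 3.99. H3K27ac lay at 14 of them before LPS and at 20 after it, p65 at 4 and WTLPS CTCF at 2. A shared site about 65 kb upstream went from a fold of 13.9 to 26.5 under the highest of the 13 p65 peaks, of fold 55.5. At the gene itself, WT had peaks with 48 fragments at 108 bp and 127 at 1660 bp from the start site, which 1 WTLPS peak with 92 fragments at 1668 bp joined. SMC1 was thus higher after LPS at that upstream site and not at the highest point within the gene.

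**Figure D4:**
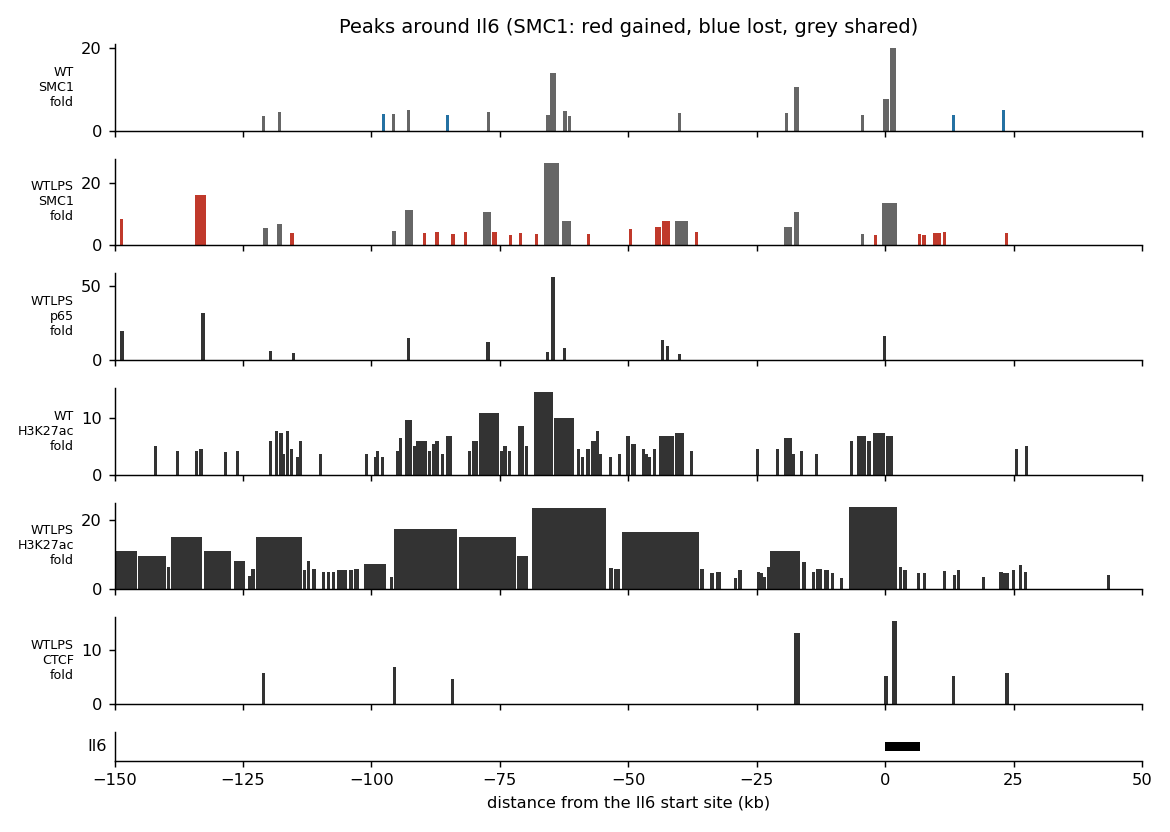
Peaks from 150 kb upstream to 50 kb downstream of the Il6 start site (x axis, distance in kb) with their fold (y axes, a separate scale from 0 for each list): SMC1 in WT and WTLPS (gained red, lost blue, shared grey), WTLPS p65, WT and WTLPS H3K27ac, and WTLPS CTCF; a black bar marks the gene. The 22 gained SMC1 peaks are spread over the region, with the strongest (fold 16.1) at a p65 peak.

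At Il12b the strongest of the 8 gained sites lay at −9915 bp from the start with a fold of 9.61 and p65, and one 412 bp inside the gene had a fold of 3.55 without p65. A shared site in an intron of the same gene fell from a fold of 12.8 to 4.73, so that gains and a fall lay within 50 kb of the same start site. Il1b had 3 gained sites, of which the strongest, 7769 bp downstream of the start, had a fold of 8.13 and 33.7 for −log10 p without p65.

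Shared sites also differed in height, which was compared at 44573 pairs of peaks that overlapped only each other. The median log2 ratio of WTLPS to WT fold was −0.11 (quartiles −0.31 and 0.10), so that differences are read against this value, and 35.6% of the sites were higher in WTLPS. At 3445 sites with p65 after LPS the median was 0.19 (−0.08 and 0.48), 68.6% were higher, 4.79% were at least 2-fold higher and none was 2-fold lower. With p65 and no CTCF it was 0.22, with p65 and CTCF 0.04, with CTCF and no p65 −0.14, and with neither −0.09. At 338 sites with p65 where H3K27ac was called only after LPS it was 0.37, with 84.0% higher, against −0.05 at 1898 such sites without p65. Sites without p65 where H3K27ac was called only before LPS had −0.20, with 24.6% higher. The higher medians were thus at sites with p65. They were smaller where both peaks had −log10 p of 20 or more, with 0.09 at 1944 sites with p65, 0.17 at 132 with p65 and H3K27ac only after LPS, and −0.02 at 373 with p65 and CTCF, against −0.12 over all 18906 such pairs.

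**Figure D5:**
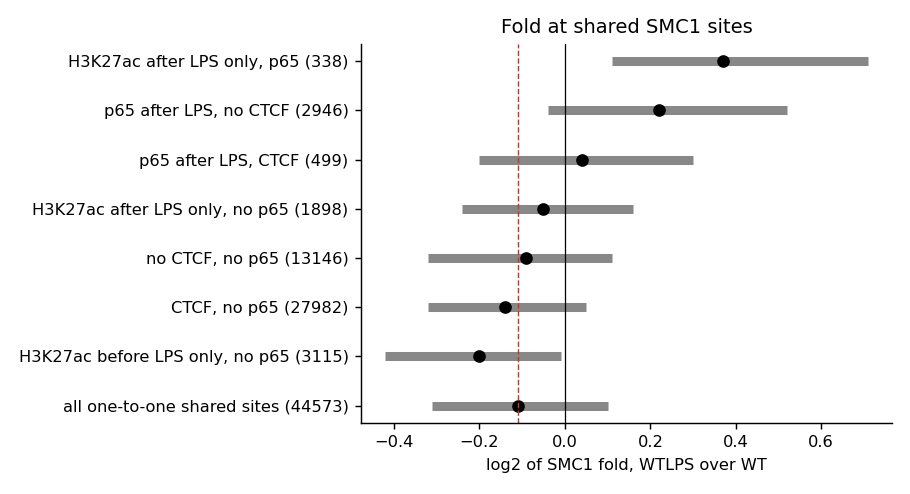
Median (point) and quartiles (bar) of the log2 ratio of WTLPS to WT SMC1 fold (x axis) over pairs of shared SMC1 peaks, by the marks at the site (number of sites in parentheses). The dashed red line is the median of all pairs, −0.11, and the medians run from −0.20 (H3K27ac before LPS only, no p65) to 0.37 (H3K27ac after LPS only, p65).

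The shared sites with the largest change are given as a description, since they were picked by it. All 10 of the largest rises had p65 and H3K27ac after LPS. The largest was 2512 bp upstream of Atp6v1e2, from a fold of 3.44 to 14.8, and sites near Usp47 (3.59 to 13.9) and in an intron 73665 bp downstream of the start of Cbr4 (3.90 to 15.1) followed. A site 22552 bp downstream of the start of Socs3 rose from 7.65 to 23.9, one near Slco3a1, an organic anion transporter gene, from 6.56 to 20.4, and one near the adenosine receptor gene Adora2a from 3.99 to 12.4. None of the 10 largest falls had p65. They included sites near Cdh26 (11.4 to 3.70), Eno1, the glycolytic enolase (8.04 to 2.87), Lyz2, lysozyme of myeloid cells (9.53 to 3.55), and Clic4 (17.8 to 7.24). CTCF of WT lay at 6 of these 10, and the CTCF peak remained in WTLPS at all but the site near Armc2.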

How the data were processed

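ChIP-seq with an SMC1 antibody was analysed in CTCF-WT BMDCs before and after LPS, beside the CTCF, H3K27ac, p65, H3K4me1, H3K4me3 and CTCF-KO SMC1 lists of the same series. Groups came from the sample titles. Libraries were made by tagmentation and sequenced paired-end. The submitters' processing notes name BWA 0.7.12, Picard 1.77, MACS2 2.1.2 and deepTools 3.1.3 and the mm10 build, and the versions in the study's methods differ. The authors deposited MACS2 peak lists whose columns hold the fold, a ratio of summit pileup to local background, and −log10 p and q values. The methods describe 2 biological replicates with peaks called on each, and the labels do not say whether a list is one replicate or a pool. A replicate block, a paired fit and a test across replicates could therefore not be made.

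Peaks were classed by an overlap of at least 1 bp. Summit fragments were recovered as the whole number that gave the deposited fold and −log10 p with a tolerance of 0.002 on the latter, which worked for 99.99% of the SMC1 peaks of either list. Genes were those of GENCODE vM21 (GRCm38), with the start site of the longest transcript; 21911 protein-coding genes were counted, promoters were 2.5 kb to either side, a site counted for a gene where any base of the peak lay in the window, and distances to a named site run from the start site to its summit. Il36a, Il36g, Cxcl11 and Mx2 were not found under these names. Sequences came from the RefSeq GRCm38 genome and motifs were searched within 50 bp of summits. Shares have Wilson intervals. Python 3.11.15, numpy 2.4.6, pandas 2.3.3, scipy 1.17.1 and matplotlib 3.10.9 were used, and the overlap, recovery and motif steps were tested on simulated data.

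The members and gene lists were chosen with earlier results of these data known. The genes named were list members, the genes nearest to the 10 strongest gained and lost sites, the 10 genes with most gained or lost sites within 50 kb, the genes nearest to the 10 strongest gained sites with p65 and lost sites outside promoters, and those at the 10 largest rises and falls of shared sites. The sites printed for a motif were taken from the strongest with that motif, and they and Nos2, Tab2 and other members singled out were chosen after their values were seen. Alternatives were an overlap of 50%, a gap of 1 kb, −log10 p of at least 10, thinning to equal background, gene distances of 10 and 100 kb and motif windows of 100 bp, and, chosen after seeing the data, −log10 p of at least 20 at both peaks of a shared pair. Of the columns in the lists, 0 belonged to other series.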

Additional observations from a re-analysis of the deposited data

Results flagged for a closer look

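At 13 of 27 sets of sites the share with an SMC1 peak was higher in WTLPS than in WT but lower in KOLPS than in KO, among them all p65 peaks called only after LPS (17.2 and −1.22 percentage points) and those called in both conditions (5.65 and −4.55). At 4 of the 13, given next, the intervals of the shares did not overlap within either genotype. These differences were not tested, since each condition had 1 list, and the KOLPS list had both the fewest SMC1 peaks (17241, against 29965 in KO) and a lower background (4.50 against 5.34 fragments per base). The p65 sites were those of CTCF-WT cells, and the p65 list of KOLPS held 1752 peaks against 5465 in WTLPS.

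At p65 peaks called only after LPS with H3K27ac only before it (234 sites), the share changed by 9.4 percentage points in CTCF-WT cells and by −12.4 in CTCF-KO cells. In the weakest of 4 equal groups of the p65 peaks called only after LPS, the changes were 11.1 and −6.67 points. At all H3K27ac peaks called only after LPS they were 2.06 and −2.06 points, and at those without p65 they were 1.41 and −2.15 points.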

How the results depend on the processing

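With only peaks of −log10 p of at least 10, lost and gained sites numbered 4907 and 2985, with CTCF at 37.2% and 24.2% and H3K27ac at 37.5% and 48.0% of them, and p65 after LPS at 19.5% of gained sites. When 50% of a peak had to be covered, CTCF was at 31.0% of lost and 26.5% of gained sites and H3K27ac at 36.4% and 42.2%. WT p65 lay at 0.124% of these lost sites, against 0.0185% with an overlap of at least 1 bp. WTLPS p65 lay at 10.3% of the gained sites. SMC1 lay in WT at 66.7% of p65 peaks called only after LPS. With no peak of the other condition within 1 kb, H3K27ac was at 28.6% of lost and 33.8% of gained sites. Within 10 kb in place of 50 kb, 2656 genes had a gained and 4647 a lost site and 256 a gained site with p65 (957 within 50 kb), and of the gene list counts 26 of 32 moved by over 1.5 times, against 7 within 100 kb. In windows of 100 bp to either side of the summit, NF-κB matches lay at 5.41% of gained and PU.1 matches at 6.15% of lost summits. With −log10 p of at least 20 at both peaks of a shared pair, a setting chosen after seeing the data, the median log2 ratio at sites with p65 and CTCF turned from 0.04 to −0.02 and that at all sites with p65 fell from 0.19 to 0.09. The counts of gained and lost sites stayed within 1.5 times of the reported ones under the overlap of 50% (13137 and 18607), the gap of 1 kb (8503 and 13526) and the thinning of WTLPS fragments to 0.938 (9027 and 17354, expected values). Depth limits the classes, since 67.7% of gained and 66.1% of lost sites stood within 5 fragments of the fewest that gave a call. No paired analysis was possible because each antibody and condition had 1 list.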

Other observations

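H3K27me3, the mark of Polycomb silencing, lay at 6.74% (6.28 to 7.24%) of gained sites in WT, against 5.04% of shared WTLPS sites and 4.66% of lost sites. In WTLPS these shares were 3.58%, 2.72% and 2.71%, beside lists that went from 96475 to 65880 peaks. STAT5, which GM-CSF activates, was mapped in CTCF-WT cells re-stimulated with GM-CSF for 15 min, a treatment that the cells of the SMC1 lists did not have. Its peaks lay at 4.18% (3.82 to 4.59%) of gained, 3.19% (2.93 to 3.47%) of lost and 8.92% of shared WTLPS sites, and at 9.96% of gained sites with p65. No gained and no lost site overlapped peaks of 20 or more lists, which 353 shared WT sites did.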
